A study of Mus musculus with 10 samples.

Results

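The antiviral interferon-stimulated genes described here are 32 genes that cells switch on when type I interferon signals, picked by symbol from the 24385 rows of a read count table. All 32 were in the table and all 32 passed the filter on low counts, as did 13075 genes in all. The cells were bone marrow-derived dendritic cells (BMDCs), antigen-presenting cells grown from marrow, of female wild-type C57BL/6 mice aged 8 to 10 weeks. Marrow was cultured for 7 days with 20 ng/mL GM-CSF, and the immature non-adherent cells present on day 6 were used. The treated group received 400 µg/mL of AMLE, a leaf extract of apple mango, for 24 h, and the control group received 0.04% DMSO, the vehicle. There were 3 RNA libraries in each group, and 2 libraries in each group of ATAC-seq, which maps open chromatin by where a transposase can insert. The series title asks whether the extract matures and activates these cells. Nothing in the labels ties a replicate to its own mouse or culture, and p-values therefore reflect the spread between libraries, which may be technical. GM-CSF cultures hold several myeloid cell types.

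Type I interferons bind a receptor made of IFNAR1 and IFNAR2, whose kinases JAK1 and TYK2 phosphorylate STAT2. STAT2 acts with IRF9 in the complex ISGF3, which binds the interferon-stimulated response element in the promoters of antiviral genes. The products sense viral RNA, degrade it, block viral translation or entry, tag proteins with the ubiquitin-like ISG15, or damp the signal itself. Several families lie side by side in the genome. Ifit1, Ifit2, Ifit3 and Ifit3b lie within 99.5 kb of chromosome 19, Oas1a, Oas1g, Oas2 and Oas3 within 177 kb of chromosome 5, Oasl1 and Oasl2 within 41.0 kb of the same chromosome, and Rsad2 and Cmpk2 within 37.1 kb of chromosome 12 (RefSeq, GRCm38.p6).

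The 250 bases before the transcript start of 7 of these genes are shown. Among the 7, Ifit1, Ifit2 and Ifit3, and likewise Rsad2 and Cmpk2, are neighbours that differ in their matches to the response element. Isg15 and Trim30a have a match and no neighbour in the list. Oasl1 and Herc6, which rose after AMLE with no match, are not shown. The 7 genes were chosen after the values were seen. Their sequences come from RefSeq, build GRCm38.p6, 5′ to 3′ on the strand of the gene. Capitals mark each match to the core of the response element, spelled GAAA, any 2 bases, GAAA, or its reverse complement TTTC, any 2 bases, TTTC; overlapping matches run together.
Isg15, chr4:156200819-156201068, minus strand: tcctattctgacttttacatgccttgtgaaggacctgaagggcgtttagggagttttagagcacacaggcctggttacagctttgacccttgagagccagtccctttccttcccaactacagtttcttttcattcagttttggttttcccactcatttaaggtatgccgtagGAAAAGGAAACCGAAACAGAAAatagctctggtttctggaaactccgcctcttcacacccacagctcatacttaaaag
Ifit1, chr19:34640639-34640888, plus strand: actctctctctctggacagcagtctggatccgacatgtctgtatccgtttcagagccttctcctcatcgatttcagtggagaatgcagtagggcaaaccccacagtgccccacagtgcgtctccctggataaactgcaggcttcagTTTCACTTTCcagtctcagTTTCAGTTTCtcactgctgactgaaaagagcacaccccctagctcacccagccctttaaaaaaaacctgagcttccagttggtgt
Ifit3, chr19:34583279-34583528, plus strand: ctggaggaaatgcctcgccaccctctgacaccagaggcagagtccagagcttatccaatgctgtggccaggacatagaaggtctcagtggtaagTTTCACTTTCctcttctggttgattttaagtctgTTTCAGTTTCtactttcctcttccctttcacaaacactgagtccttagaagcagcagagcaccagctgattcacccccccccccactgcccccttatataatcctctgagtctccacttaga
Ifit2, chr19:34550444-34550693, plus strand: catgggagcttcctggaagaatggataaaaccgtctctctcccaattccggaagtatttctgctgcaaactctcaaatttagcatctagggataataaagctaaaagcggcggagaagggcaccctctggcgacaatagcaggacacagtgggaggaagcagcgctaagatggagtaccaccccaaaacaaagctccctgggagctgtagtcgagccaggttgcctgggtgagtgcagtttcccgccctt
Rsad2, chr12:26456453-26456702, minus strand: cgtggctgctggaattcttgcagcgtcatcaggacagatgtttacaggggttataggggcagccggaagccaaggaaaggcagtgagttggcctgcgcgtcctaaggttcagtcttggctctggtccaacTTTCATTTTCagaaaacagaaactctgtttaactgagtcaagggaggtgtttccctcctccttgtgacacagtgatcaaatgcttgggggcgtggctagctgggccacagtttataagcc
Cmpk2, chr12:26468965-26469214, plus strand: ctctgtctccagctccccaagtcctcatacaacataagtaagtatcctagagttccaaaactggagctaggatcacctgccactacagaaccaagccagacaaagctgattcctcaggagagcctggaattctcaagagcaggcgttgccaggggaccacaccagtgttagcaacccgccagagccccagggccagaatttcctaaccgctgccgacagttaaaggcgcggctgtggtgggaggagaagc
Trim30a, chr7:104465194-104465443, minus strand: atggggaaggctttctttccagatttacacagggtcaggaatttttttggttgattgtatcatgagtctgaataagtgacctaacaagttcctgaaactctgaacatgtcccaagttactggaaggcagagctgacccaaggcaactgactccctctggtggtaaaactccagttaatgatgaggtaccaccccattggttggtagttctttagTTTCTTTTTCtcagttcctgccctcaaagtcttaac

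Isg15 had 3 overlapping matches, which began 78, 72 and 66 bases before its start. Ifit1 and Ifit3 had 2 matches each. Their neighbour Ifit2 has 2 starts, at chr19:34550694, for which the sequence is shown, and at chr19:34551088. Neither window of Ifit2 had a match. Rsad2 had a match 120 bases before its start, and its neighbour Cmpk2 had none. Trim30a, which carried a match 36 bases before the start shown, also had a second start with a match 2 bases after it. A match is a string of letters and not a measured binding site. A window without one says nothing of other sequences.

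Of the 32 genes, 22 rose after AMLE and 3 fell, while 7 passed no test (edgeR quasi-likelihood test, adjusted p below 0.05 over all 13075 genes tested). In the same fit 23.0% of all tested genes rose (3004 genes) and 25.6% fell (3346 genes). The median log2 fold change of the 32 genes was 0.50, beside -0.01 for all tested genes. All 3 AMLE libraries lay above all 3 DMSO libraries for 22 of the 32 genes, beside 28.4% of all tested genes, and below them for 2, beside 31.4%. Most changes were small: 8 genes rose at least 2-fold, namely Ifi205, Oasl1, Ifit1, Rtp4, Usp18, Isg15, Oas2 and Oasl2. The share and the median describe a list chosen with earlier results of these data in view. In bulk RNA, fewer cells of a type and less RNA per cell cannot be told apart.

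**Figure D1:**
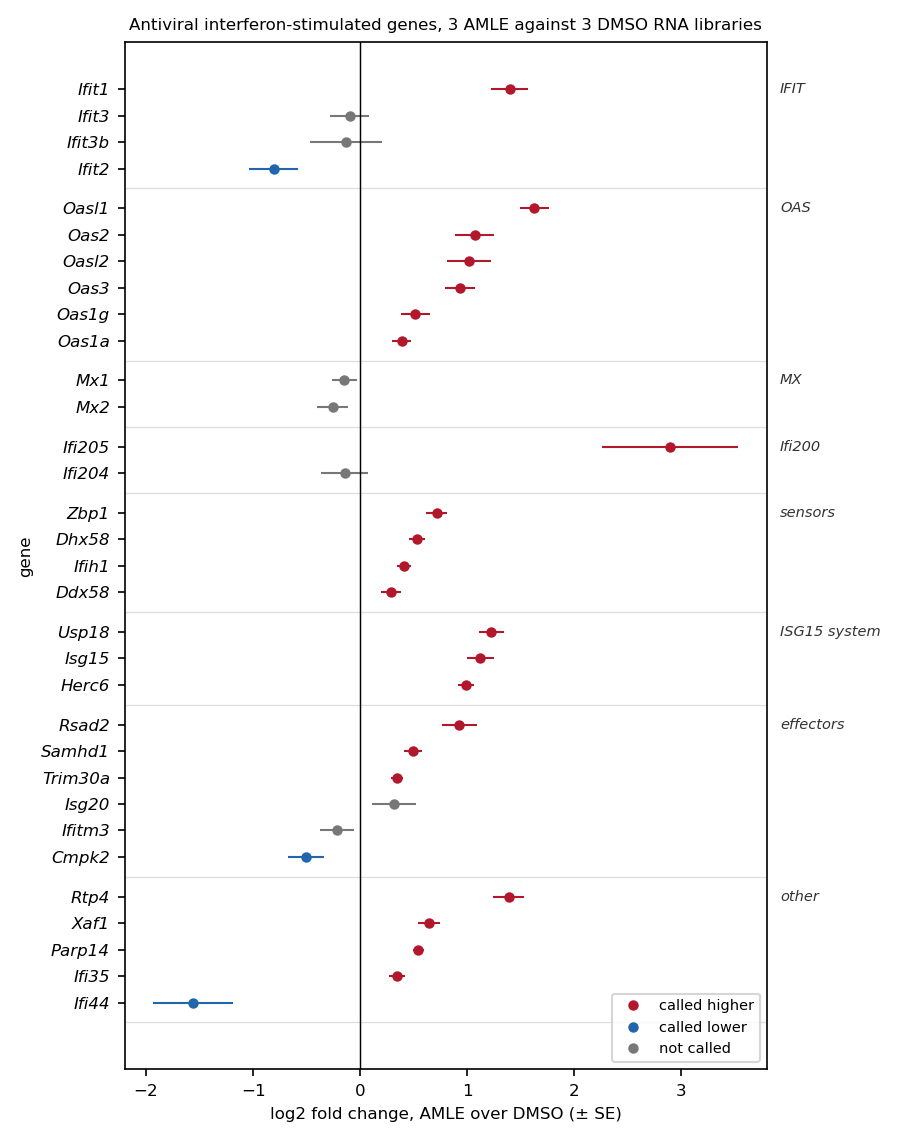
The plot shows the log2 fold change (AMLE over DMSO) of each of the 32 genes with its standard error, grouped by role and coloured by the edgeR call. The OAS, sensor and ISG15 rows lie wholly to the right of 0, while Ifit2, Cmpk2 and Ifi44 lie to the left at -0.81, -0.50 and -1.56.

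The IFIT proteins bind viral RNA and hold back its translation, and their 4 genes split. Ifit1 rose, Ifit2 fell and Ifit3 and Ifit3b passed no test, and the median log2 fold change was -0.11. Ifit1 stood at 4.32, 3.69 and 4.07 CPM (counts scaled to 1e+06 per library) in the DMSO libraries and at 12.6, 8.23 and 11.2 in the AMLE libraries. The groups were well apart, and the log2 fold change was 1.40 ± 0.17 (SE; edgeR adjusted p = 0.000707). Ifit2 stood at 5.09, 4.49 and 6.72 CPM in DMSO and at 3.18, 2.33 and 3.86 in AMLE. Every AMLE library was below every DMSO library, with a log2 fold change of -0.81 ± 0.23 (edgeR adjusted p = 0.0226). That call was lost without DMSO replicate 3 (edgeR adjusted p = 0.0657) and, among the treated libraries, without replicate 1 (0.0637) or 2 (0.0593).

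Ifit3, whose protein can bind IFIT1, stood at 1.94, 1.90 and 1.69 CPM in DMSO and at 1.67, 1.49 and 2.03 in AMLE. The groups overlapped, and the log2 fold change was -0.10 ± 0.18 (edgeR adjusted p = 0.681). Its near copy Ifit3b had only 13 to 30 counts per library and a log2 fold change of -0.13 ± 0.34. The sources used here do not say how reads shared by such copies were counted, which leaves the split between Ifit3 and Ifit3b uncertain. On the log2 scale Ifit2 exceeded Ifit3 within a library by 1.39, 1.25 and 1.99 in DMSO and by 0.93, 0.65 and 0.93 in AMLE. The mean ratio was 1.54 ± 0.40 (SD, n = 3) and 0.84 ± 0.16, a difference of -0.71 (exact two-sided permutation test p = 0.1, the smallest that 3 against 3 libraries can give). Here and below, a ratio of counts of 2 genes is read only as a change between groups, since the genes differ in length. The pairs were chosen with earlier results of these data known, so the ratios and their p-values are a description.

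All 6 OAS genes rose, with a median log2 fold change of 0.97. The OAS1, OAS2 and OAS3 enzymes make 2′-5′ oligoadenylates on double-stranded RNA and so activate RNase L. Oasl1, a relative known to restrain the translation of Irf7, had the largest change of the 6 and went from 2.32, 2.67 and 2.34 CPM in DMSO to 8.47, 7.06 and 7.15 in AMLE (log2 fold change 1.63 ± 0.13, edgeR adjusted p = 0.000141). Oas2 stood at 41.1, 36.0 and 25.5 CPM in DMSO and at 84.4, 66.9 and 64.2 in AMLE (log2 fold change 1.07 ± 0.18, edgeR adjusted p = 0.00343). For Oasl1 and Oas2 the lowest AMLE library was well above the highest DMSO library.

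Oasl2 stood at 53.5, 45.7 and 31.0 CPM in DMSO and at 104, 84.4 and 75.2 in AMLE, a log2 fold change of 1.01 ± 0.21 (edgeR adjusted p = 0.00670). The log2 ratio of Oasl2 to Oasl1 was 4.53, 4.10 and 3.73 in DMSO and 3.61, 3.58 and 3.40 in AMLE. The difference between the group means was -0.59, with no overlap (exact two-sided permutation test p = 0.1). It was -0.38 without DMSO replicate 1. Oas3 rose by a log2 fold change of 0.93 ± 0.14, and the tandem copies Oas1g and Oas1a by 0.51 ± 0.14 and 0.39 ± 0.09. Oas1g was no longer called without DMSO replicate 2 (edgeR adjusted p = 0.0579), and reads of the Oas1 copies may have been exchanged in counting.

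Mx1 and Mx2 encode interferon-induced GTPases, and the C57BL/6 strain is known to carry defective alleles of both. Neither RNA was called: they did not pass the test (unadjusted p = 0.237 and 0.113 by edgeR), nor did they with DESeq2 or limma-voom. Mx1 stood at 228, 277 and 244 CPM in DMSO and at 199, 215 and 261 in AMLE, overlapping ranges with a log2 fold change of -0.15 ± 0.11 (edgeR adjusted p = 0.319). Mx2 ranged from 4.42 to 5.65 CPM in DMSO and from 4.03 to 4.81 in AMLE, a log2 fold change of -0.26 ± 0.14. Without AMLE replicate 3 Mx1 was called lower, at -0.25 (edgeR adjusted p = 0.0428), so 1 library decided which side of the threshold it fell on.

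The Ifi200 proteins, encoded in a cluster on chromosome 1, bind DNA through HIN domains, and most carry a pyrin domain. Of 2 such genes in the list, 1 rose and 1 passed no test. Ifi205 stood at 0.44, 0.88 and 0.48 CPM in DMSO and at 5.05, 6.89 and 1.34 in AMLE. The groups did not overlap, but AMLE replicate 3 was close to the DMSO libraries and far below the other AMLE libraries. The log2 fold change was 2.89 ± 0.63 (edgeR adjusted p = 0.00898), the largest among the 32 genes, and ranged from 2.41 to 3.33 when single libraries were left out. Ifi204 stood at 40.5, 35.2 and 27.6 CPM in DMSO and at 30.7, 23.0 and 40.1 in AMLE, with overlapping groups and a log2 fold change of -0.14 ± 0.22. Here AMLE replicate 3 was the highest AMLE library. The Ifi200 genes are similar in sequence, so reads may have been exchanged between them.

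All 4 sensors of foreign nucleic acid rose, by modest amounts. Zbp1, a sensor of Z-form nucleic acid that can start necroptosis, stood at 35.8, 35.4 and 30.9 CPM in DMSO and at 62.9, 54.8 and 50.0 in AMLE (log2 fold change 0.72 ± 0.10, edgeR adjusted p = 0.00110). Dhx58, which encodes the RIG-I-like receptor LGP2, stood at 22.8, 19.8 and 21.4 CPM in DMSO and at 32.9, 28.9 and 30.8 in AMLE (log2 fold change 0.53 ± 0.08, edgeR adjusted p = 0.00137). The groups were apart for both genes. Ifih1, which encodes the long double-stranded RNA sensor MDA5, rose by 0.41 ± 0.07, and Ddx58, which encodes RIG-I, by 0.29 ± 0.10. Ddx58 passed narrowly (edgeR adjusted p = 0.0393) and was lost when either DMSO replicate 2 (0.126) or 3 (0.115), or the first AMLE library (0.0911), was left out.

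The 3 genes of the ISG15 system rose together, with log2 fold changes from 0.99 to 1.23. Isg15, the ubiquitin-like modifier, stood at 7.47, 6.14 and 6.86 CPM in DMSO and at 17.1, 13.3 and 14.2 in AMLE (log2 fold change 1.12 ± 0.12, edgeR adjusted p = 0.000470). Usp18, the protease that removes ISG15 and also restrains the interferon receptor, stood at 13.1, 13.2 and 15.6 CPM in DMSO and at 35.1, 35.2 and 27.7 in AMLE (log2 fold change 1.23 ± 0.12, edgeR adjusted p = 0.000258). In both genes the lowest AMLE library was over the highest DMSO library by a wide margin. Herc6, the ligase that attaches ISG15 in mice, rose by 0.99 ± 0.08.

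Of 6 other direct effectors, 3 rose, 1 fell and 2 passed no test. Rsad2, which encodes viperin, an enzyme that makes the chain terminator ddhCTP, stood at 6.04, 4.78 and 4.89 CPM in DMSO and at 10.9, 8.02 and 11.1 in AMLE (log2 fold change 0.93 ± 0.16, edgeR adjusted p = 0.00310). Cmpk2, the mitochondrial nucleotide kinase encoded beside it, stood at 13.1, 11.7 and 9.44 CPM in DMSO and at 9.59, 6.71 and 7.95 in AMLE. Its log2 fold change was -0.50 ± 0.17 (edgeR adjusted p = 0.0404), and AMLE replicate 1 overlapped DMSO replicate 3. The call was lost without DMSO replicate 1 (edgeR adjusted p = 0.131) or 2 (0.106) and, among the treated libraries, without replicate 2 (0.117) or 3 (0.0657).

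Within each library the neighbours could also be set against each other. The log2 ratio of Cmpk2 to Rsad2 was 1.11, 1.30 and 0.95 in DMSO and -0.18, -0.26 and -0.48 in AMLE. It went from a mean of 1.12 ± 0.17 (SD, n = 3) to -0.31 ± 0.16, a difference of -1.43 with no overlap (exact two-sided permutation test p = 0.1). The 3 ratios were the whole family tested, and each had a Benjamini-Hochberg value of 0.1, so none reaches the 0.05 threshold in this design.

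Samhd1, the dNTP hydrolase that starves reverse transcription, rose by a log2 fold change of 0.49 ± 0.08, from 622 to 660 CPM in DMSO to 817 to 1005 in AMLE. Trim30a, a regulator of toll-like receptor signalling, rose by 0.34 ± 0.05. Isg20, a 3′ exonuclease, ranged from 5.75 to 6.96 CPM in DMSO, while AMLE replicate 1 was at 10.5 and the other AMLE libraries at 6.48 and 6.50. Its log2 fold change of 0.31 ± 0.21 did not pass. Ifitm3, a membrane protein that blocks viral fusion, was at -0.22 ± 0.16 and also did not pass.

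Of the last 5 genes, 4 rose and 1 fell. Rtp4, a zinc-finger protein that restrains flaviviruses, stood at 12.2, 9.20 and 9.51 CPM in DMSO and at 31.4, 24.3 and 25.4 in AMLE (log2 fold change 1.39 ± 0.14, edgeR adjusted p = 0.000373). Xaf1, an antagonist of inhibitors of apoptosis, rose by 0.64 ± 0.10, Parp14, an ADP-ribosyltransferase, by 0.54 ± 0.05, and Ifi35, which pairs with the protein NMI, by 0.34 ± 0.07. Ifi44 went the other way, from 0.54, 0.77 and 0.59 CPM in DMSO to 0.27, 0.12 and 0.27 in AMLE (log2 fold change -1.56 ± 0.38, edgeR adjusted p = 0.0119). It was near the bottom of the measured range, with 17, 22 and 17 counts in the DMSO libraries and 7, 4 and 7 in the AMLE libraries. The groups did not overlap, and the call held when each library was left out in turn.

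**Figure D2:**
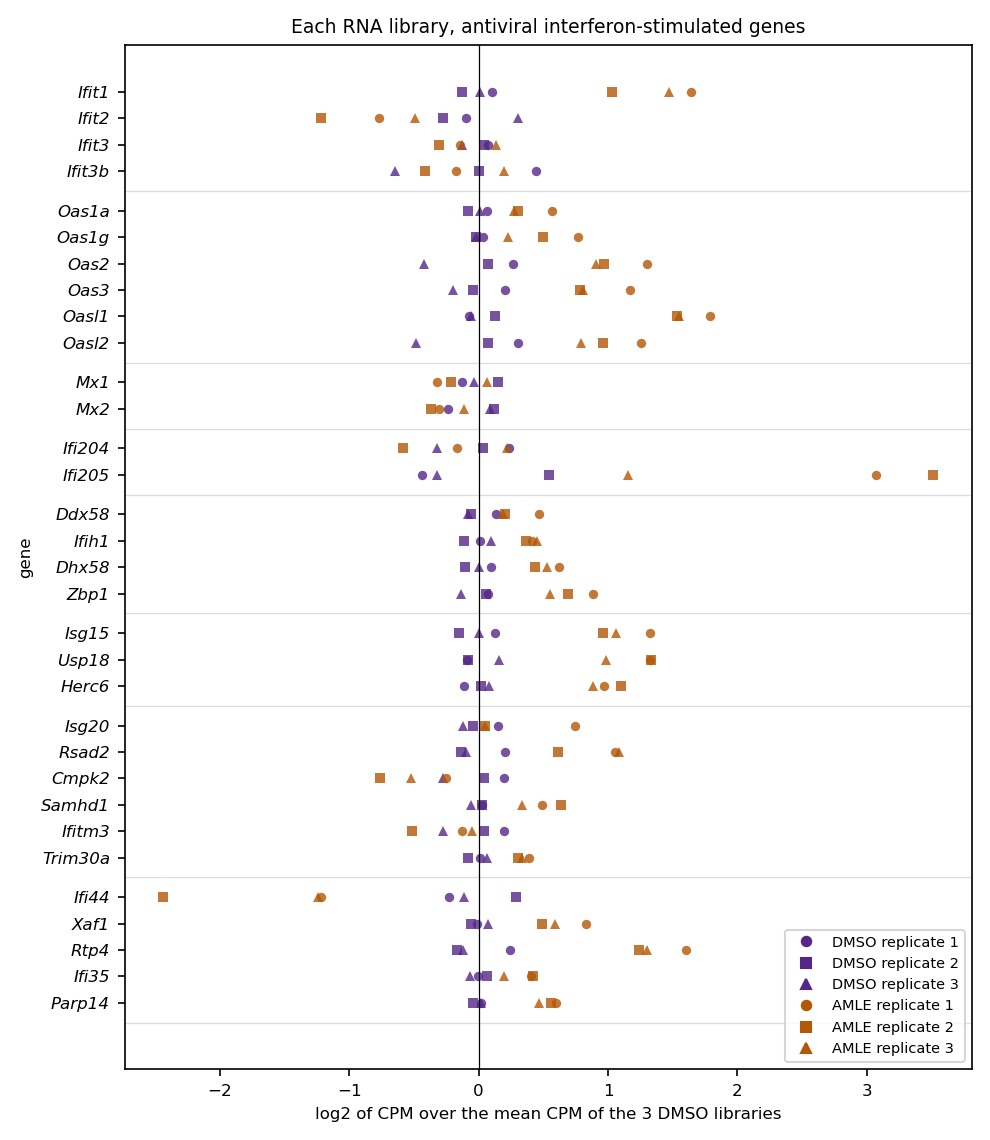
The plot shows the log2 of each library's CPM over the mean CPM of the 3 DMSO libraries, by gene, with the shape of each point giving the replicate number. The AMLE points of Oasl1, Usp18, Isg15, Herc6 and Rtp4 lie far to the right of the DMSO points, while AMLE replicate 3 of Ifi205 lies apart from AMLE replicates 1 and 2.

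The fall of Ifit2, Cmpk2 and Ifi44 among genes that mostly rose was not equally stable. Ifi44 was called lower in each of the 6 fits that left out a library, whereas Ifit2 lost its call in 3 of them and Cmpk2 in 4. Of the 22 genes that rose, 20 were called higher in all 13 fits made. The exceptions were Oas1g and Ddx58.

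The interferon genes themselves were at or near 0. Of 21 interferon ligand genes, 17 had no count in any library, and the other 4, Ifnb1, Ifnk, Ifnz and Ifng, had 37 counts over the 6 libraries together. All 13 numbered Ifna genes had 0 counts. A count of 0 allows a level of up to 0.116 CPM in the shallowest library, by 3 counts, which covers counting error only. Ifnb1 had 1 count in AMLE replicate 2 and 0 in the other libraries. None of the ligand genes passed the filter on low counts, so none was tested. Earlier times within the 24 h were not analysed here.

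Of all tested genes, 23.0% rose and 25.6% fell by the same edgeR test. Among 12 genes of the interferon receptors and their signal transduction, 7 rose and 0 fell, with a median log2 fold change of 0.23. Of those not called, Ifngr1, a chain of the interferon gamma receptor, lay lowest at -0.19 ± 0.07, with an unadjusted p = 0.0301 and an edgeR adjusted p = 0.0593; with the replicate number as a block it was called lower (edgeR adjusted p = 0.00852). Neither DESeq2 nor limma-voom called a gene of this list lower. The type I receptor genes Ifnar1 and Ifnar2 did not pass, at log2 fold changes of 0.07 ± 0.09 and -0.07 ± 0.08. Ifnar1 ranged from 167 to 172 CPM in DMSO and from 158 to 204 in AMLE, and Ifnar2 from 83.9 to 87.7 and from 73.9 to 91.1.

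Stat2 and Irf9, which encode parts of ISGF3, rose. Stat2 stood at 105, 112 and 130 CPM in DMSO and at 183, 182 and 165 in AMLE (log2 fold change 0.61 ± 0.09, edgeR adjusted p = 0.00130). Irf9 stood at 65.3, 63.4 and 63.4 CPM in DMSO and at 99.2, 103 and 87.9 in AMLE (log2 fold change 0.59 ± 0.06, edgeR adjusted p = 0.000431). The groups were apart in both genes. Jak2, the kinase that serves the GM-CSF and interferon gamma receptors, had the largest change of the list, from 677, 726 and 770 CPM in DMSO to 1157, 1351 and 1064 in AMLE (log2 fold change 0.72 ± 0.10, edgeR adjusted p = 0.00107). Tyk2 and Ifngr2 rose by 0.28 ± 0.04 and 0.18 ± 0.05. Jak1, at 0.13 ± 0.05, passed only narrowly (edgeR adjusted p = 0.0456) and was lost in every fit without 1 library and with the replicate block (0.0567).

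Of 16 genes that sense nucleic acid or induce interferon, 3 rose and 5 fell, beside 23.0% and 25.6% of all tested genes. The median log2 fold change of the 16 genes was 0.03, and with the replicate block 5 of them rose and 6 fell. Irf7, the factor that amplifies interferon alpha induction, stood at 22.1, 20.1 and 16.1 CPM in DMSO and at 55.0, 47.5 and 39.4 in AMLE (log2 fold change 1.28 ± 0.15, edgeR adjusted p = 0.000784). Irf3, the factor present before any signal, was at -0.02 ± 0.06, with 71.4 to 76.1 CPM in DMSO and 68.5 to 76.5 in AMLE. Tlr3, the endosomal receptor of double-stranded RNA, fell from 3.24, 2.14 and 3.17 CPM to 0.93, 0.53 and 1.41 (log2 fold change -1.60 ± 0.35, edgeR adjusted p = 0.00788). Mb21d1, which encodes the DNA sensor cGAS, fell from 28.3, 24.6 and 27.0 CPM to 17.9, 18.5 and 16.4 (log2 fold change -0.60 ± 0.08, edgeR adjusted p = 0.000878).

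The adaptor genes Tmem173 (STING), Myd88 and Mavs fell by 0.30, 0.30 and 0.25 on the log2 scale. Tank and Trim25, which act on the kinase TBK1 and on RIG-I, rose by 0.38 and 0.24. The sensor genes Ddx58 and Ifih1 thus rose while Mavs, the adaptor of both, fell. Mavs and Tmem173 were each lost in 4 of the 6 fits that left out a library.

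Of 10 negative regulators of the pathway, 4 rose and 2 fell, beside 23.0% and 25.6% of all tested genes. Socs1, an inhibitor of JAK kinases, stood at 63.8, 65.6 and 48.5 CPM in DMSO and at 100.2, 101 and 71.1 in AMLE (log2 fold change 0.62 ± 0.17, edgeR adjusted p = 0.0209). Its groups did not overlap, but the call was lost without the third DMSO library (0.0542) and, among the treated libraries, without replicate 1 (0.0688) or 2 (0.0685). Socs3 rose from 115, 121 and 101 CPM to 160, 146 and 152 (log2 fold change 0.44 ± 0.07, edgeR adjusted p = 0.00279). Adar, the RNA editing enzyme that masks self RNA, stood at 148, 141 and 136 CPM in DMSO and at 218, 222 and 190 in AMLE (log2 fold change 0.57 ± 0.07, edgeR adjusted p = 0.000728). Trex1, the exonuclease that clears cytosolic DNA, rose by 0.35 ± 0.07. The phosphatase gene Ptpn6 fell by 0.26 and Nlrx1 by 0.23. Ptpn6 lost its call when DMSO replicate 1 (edgeR adjusted p = 0.0743) or 2 (0.0684) was left out. Nlrx1 passed only narrowly (edgeR adjusted p = 0.0479) and was lost in 5 of the 6 fits without 1 library (0.0748 to 0.126), with RLE factors (0.0511) and with DESeq2 (0.0539). Over the 38 tested pathway genes 14 rose and 7 fell, beside the same shares of all tested genes. The median log2 fold change of the 38 genes was 0.11.

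**Figure D3:**
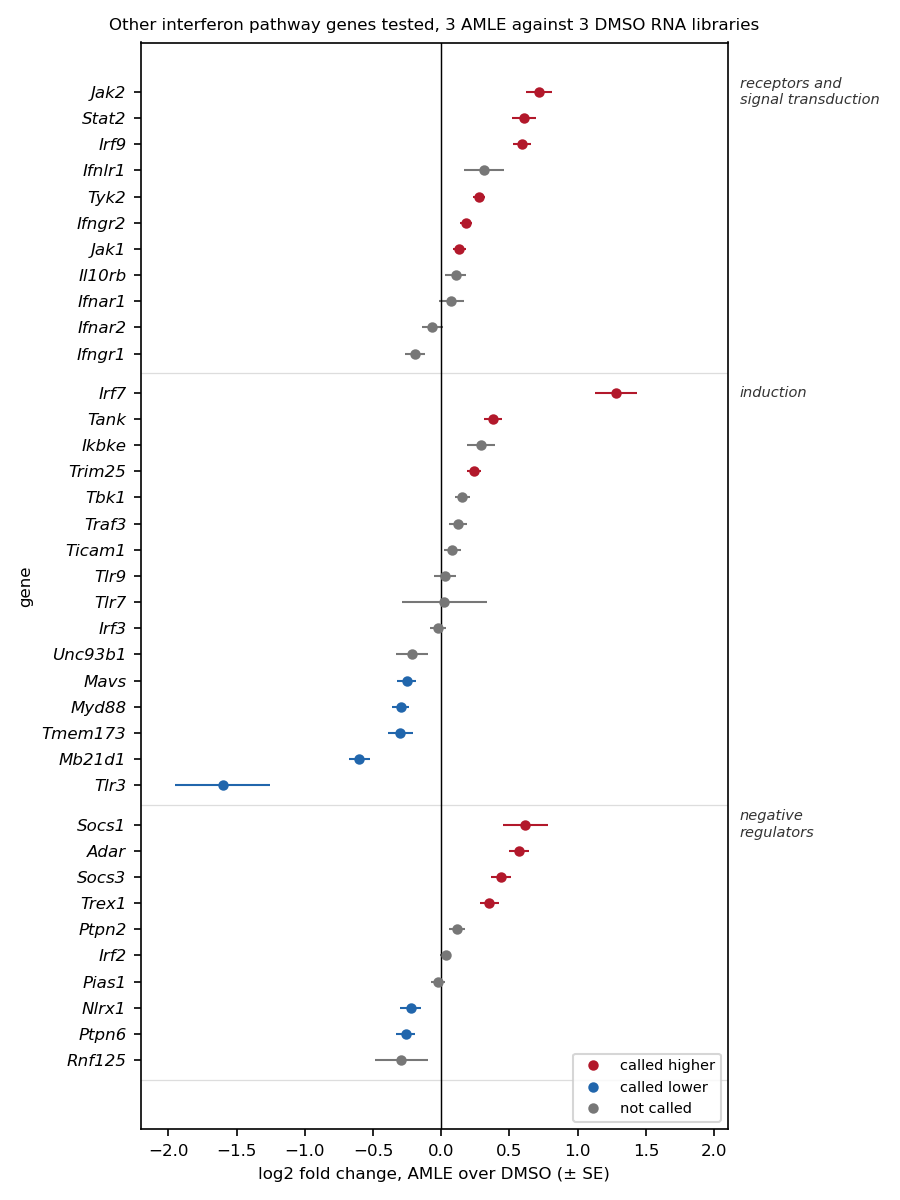
The plot shows the log2 fold change (AMLE over DMSO) with its standard error for 37 tested interferon pathway genes, by list and edgeR call. Stat2 and Irf9 lie at 0.61 and 0.59, the receptor genes Ifnar1 and Ifnar2 sit at 0.07 and -0.07, and Irf7 and Tlr3 are at the ends with 1.28 and -1.60.

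The chromatin at these genes was read from the deposited peak lists. These held 20203 and 21703 summits in the DMSO libraries and fewer, 17821 and 17447, in the AMLE libraries. The consensus lists held 15643 distinct intervals for DMSO and 12820 for AMLE. A RefSeq start was matched for 23 of the 32 genes (71.9%) and for 79.7% of all tested genes. With under 80% matched, shares over start windows describe those 23 genes and are void as a check on the whole list. Oas2, Mx1, Mx2, Ifi204, Dhx58, Zbp1, Usp18, Rtp4 and Parp14 had no matched start. A peak lay within 1000 bp of a start in both DMSO libraries for 7 of the 23 genes (30.4%), beside 72.5% of tested genes with a start. In both AMLE libraries it did so for 6 (26.1%), beside 69.5%. By either end of the gene span, which can be taken for all 32 genes, a peak lay in both DMSO libraries at 12 genes (37.5%), beside 67.5%, and in both AMLE libraries at 8 (25.0%), beside 64.5%.

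Of the 23 genes, 14 had no start peak in any library, Oasl2 had one in 2 libraries, Ifih1, Isg20 and Cmpk2 in 3, and 5 in all 4 libraries, beside 67.7% of tested genes with a peak in all 4. The 5 were Ifit2, Herc6, Samhd1, Trim30a and Ifi35. The fold over local background given here is the authors' value for each peak and is not compared between lists. At Ifit2 it was 6.05 and 4.41 in the DMSO libraries and 7.30 and 6.22 in the AMLE libraries, with summits from 48 bases before to 83 bases after the start at chr19:34550694. At Samhd1 it was 6.65 and 10.4 in DMSO and 7.15 and 9.38 in AMLE. At Cmpk2 no peak was called in DMSO replicate 1, and the fold was 7.38 in DMSO replicate 2 and 4.42 and 4.18 in the AMLE libraries. Its neighbour Rsad2 had no start peak in any library.

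RNA rose both with and without a called start peak. The counts by start peak stand beside 23.0% of all tested genes called higher and 25.6% called lower. Of the 14 genes with no start peak in any library, 10 rose, 1 fell and 3 passed no test, and their median log2 fold change was 0.58. Among them were Isg15, Ifit1, Oasl1, Ifi205 and Rsad2. Of the 5 with a peak in all 4 libraries, 4 rose and 1, Ifit2, fell. A library without a called peak is not shown to be closed, since weak signal falls below the threshold of the peak calling.

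**Figure D4:**
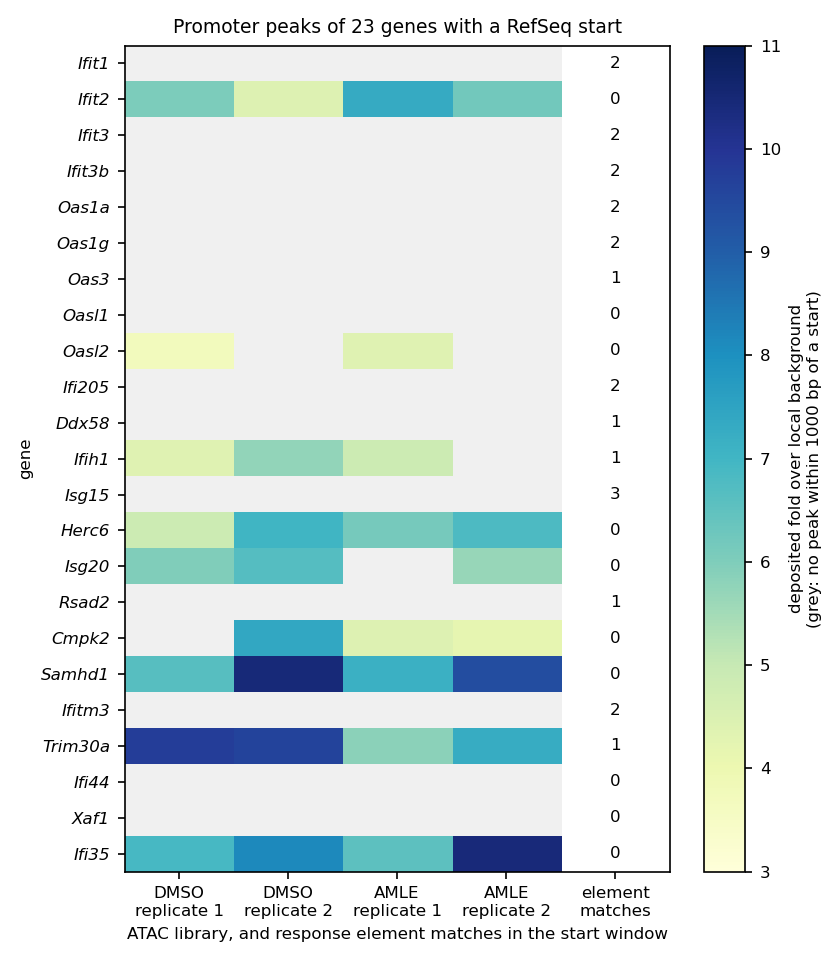
The grid shows, for 23 genes with a RefSeq start, the deposited fold over local background of the strongest peak within 1000 bp of a start in each ATAC library (colour scale; grey where no peak was called), and the number of response element matches in the start window. Ifit2, Herc6, Samhd1, Trim30a and Ifi35 are coloured in all 4 columns, 14 genes are grey throughout, and of the 13 genes with a match only Ifih1 and Trim30a have a peak in any library.

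The response element core occurred in the window from 250 bases before to 50 bases after a start for 13 of the 23 genes (56.5%), beside 3.88% of tested genes with a window and 3.44% of all 32851 windows of the RefSeq table. At least 2 matches were found for 8 of the 23, beside 0.317% of tested genes. The gamma-activated site, spelled TTC, any 3 bases, GAA, occurred for 6 of the 23, beside 8.37% of tested genes; the spelling reads the same on both strands. The first element is the known binding site of ISGF3 at genes of this class, so its frequency here is background and not a finding.

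The 13 genes with a match were Ifit1, Ifit3, Ifit3b, Oas1a, Oas1g, Oas3, Ifi205, Ddx58, Ifih1, Isg15, Rsad2, Ifitm3 and Trim30a. Of these, 10 rose and 3, namely Ifit3, Ifit3b and Ifitm3, passed no test, with a median log2 fold change of 0.41. The 10 without a match held the 3 genes that fell, Ifit2, Cmpk2 and Ifi44, and 6 that rose, with a median of 0.42. Oasl1, at 1.63, and Herc6, at 0.99, rose with no match in the window. The counts by match stand beside 23.0% of all tested genes called higher and 25.6% called lower. No test was made of matches against changes. Matches within the Ifit cluster went with a rise in Ifit1 and with no called change in Ifit3 and Ifit3b.

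Away from the starts of the listed genes, 19 intervals of the DMSO consensus and 15 of the AMLE consensus lay within the gene bodies or 20 kb to either side. Starts of other genes were not set aside. Many of the intervals lay within 1000 bp of such a start. The genes were Ifi207, Olfr433, Rpl27, Gca, Agrn, Aen, Gm39039, Trim30c, Gm33504, Ifitm6 and Hspb9. Of the 19 intervals of the DMSO consensus, 7 had no overlap in the AMLE consensus, where 22.7% of all DMSO consensus intervals had none. They lay near Samhd1 (3 intervals, of which 1 is only 5 bp wide), Ifitm3 (2), Ifi204 and Isg15. Of the 7, 2 were also called in AMLE replicate 2, 1 near Samhd1 and that near Isg15. In the other direction 3 intervals, near Dhx58, Samhd1 and Oasl2, were in the AMLE consensus alone, where 5.83% of all AMLE consensus intervals were. Each of those 3 was also called in 1 of the DMSO libraries. The interval near Dhx58 lay by the start of Hspb9, and that near Ifi204 in the DMSO consensus by the start of Ifi207.

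Samhd1 starts at chr2:157135096 on the minus strand, and the interval chr2:157153360-157153749 lay upstream of the gene. That interval was called in both DMSO libraries, at a fold of 4.81 and 8.56, and in neither AMLE library. Samhd1 RNA rose, and a link to the interval was not tested. The interval chr4:156197186-156197497 near Isg15 was called in both DMSO libraries and in AMLE replicate 2, and lies within reach of the start of Agrn. The interval chr7:141016859-141017231 near Ifitm3, called at a fold of 5.22 and 4.31 in the DMSO libraries and in neither AMLE library, lies near the start of Ifitm6. Which gene such an interval acts on was not tested.

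Across the series the RNA libraries held 26010455 to 34208286 counts. Markers of other cells moved with the treatment, and their part in the results above was not tested. The counts of markers below stand beside 23.0% of all tested genes called higher and 25.6% called lower. Of 7 neutrophil markers 4 fell: DMSO exceeded AMLE 24.7-fold for Elane, 8.03-fold for Mpo, 5.07-fold for Camp and 3.40-fold for Ngp. The summed level, most of it S100a8 and S100a9, which were not called, was 12140 to 19530 CPM in DMSO and 8708 to 12170 in AMLE. With the replicate block 6 neutrophil markers were called lower, S100a8 and S100a9 included, and Csf3r higher. Of 7 macrophage and monocyte markers 3 fell and 1 rose, with summed levels of 1697 to 1865 CPM in DMSO and 1076 to 1813 in AMLE; with the block Mertk was also called lower. Of 7 dendritic cell markers Flt3 and Zbtb46 rose and H2-Ab1 fell, with Itgax at 611 to 813 CPM in DMSO and 618 to 773 in AMLE; with the block Cd74 and Csf2ra were also called lower. For plasmacytoid dendritic cells, the main makers of interferon alpha, Tcf4 rose and Ly6d fell among 6 tested of 7 markers. Summed levels were 108 to 114 CPM in DMSO and 128 to 131 in AMLE. Most of the sum was Bst2, which was not called, at 74.9 to 79.0 CPM in DMSO and 76.1 to 86.0 in AMLE. Tcf4 stood at 19.7 to 21.6 CPM in DMSO and 29.8 to 39.1 in AMLE. The defining marker of these cells, Siglech, stayed at 0.29 to 0.59 CPM in all 6 libraries. Klk1 was near 0 in both groups, with 1, 0 and 4 counts in the DMSO libraries and 0 in each AMLE library. Of 7 lymphocyte markers 5 were tested and Nkg7 was called, lower, with summed levels of 20.4 to 29.4 CPM in DMSO and 20.1 to 29.1 in AMLE. Cd3g was called higher with the block (edgeR adjusted p = 0.00767). Cd3e, which did not pass the filter, had 5, 8 and 0 counts in DMSO and 8, 55 and 9 in AMLE (DESeq2 adjusted p = 0.0402), and Ncr1 had at most 2 counts in a library.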

How the data were processed

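Dendritic cells from mouse bone marrow gave 6 RNA and 4 ATAC libraries; their titles gave group and replicate number. The 32 genes, the pathway and marker lists and the designs were chosen with earlier results of these data known. For RNA the authors deposited raw read counts per gene symbol from stranded poly(A) libraries. For ATAC the authors deposited a peak list per library and a consensus per group, giving each summit a −log10 q and a fold, its ratio to the local background; the smallest −log10 q was 1.30 to 1.31. Build mm10, MACS3 3.0.0a7, Bowtie2 2.4.4, SAMtools 1.7, STAR 2.7.11b and Trim Galore 0.6.7 appear in the submitters' processing notes, without roles. Not given in the sources used here: how reads were counted, with which strand setting and annotation, and the peak settings.

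Of 24385 genes, 6459 had no count and 13075 passed the filter (minimum count 10). They were tested with edgeR 4.0.16 in R 4.3.3 (TMM, robust quasi-likelihood F test, two-sided, Benjamini-Hochberg over all tested genes, called below 0.05). The fit was also run on simulated counts with a fixed spread and far fewer changed genes than were called here. That run cannot speak for the error rate in these data. Log2 fold changes are AMLE minus DMSO, and SE is the absolute change over the square root of F. CPM are counts scaled to an effective library size of 1e+06. Same-numbered libraries deviated together (correlations 0.292, 0.280 and 0.431 over genes, on log2 CPM with a prior count of 2; other pairs -0.310 to 0.110), so the replicate block is a paired alternative. Other alternatives were RLE factors, no filter, DESeq2 1.42.0, limma-voom 3.58.1, leaving out each library, and other peak windows and thresholds; promoter counts by either gene end were added after seeing the data. Every library pair differed beyond sampling noise.

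Values in every library are given for the 2 called genes with the largest change in each role group, for genes called against the majority and for ratio pairs; from each pathway list the 3 largest called changes are named, together with a fixed set of central genes. Mx1, Mx2, Ifi204, Isg20, Samhd1, Tyk2, Ifngr2, Jak1, Tmem173, Myd88, Mavs, Tank, Trim25, Ptpn6, Nlrx1 and Ifngr1 values beyond that rule, and the promoters shown, were chosen after values were seen. Starts and sequences are RefSeq, GRCm38.p6, the build also called mm10. 1 gene of the receptor and signal transduction list is counted in that list but not reported here.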

Additional observations from a re-analysis of the deposited data

How the results depend on the processing

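Over 12 alternative fits the number of genes called higher stayed between 20 and 22. The replicate block, which pairs libraries by number, left 22 higher and 3 lower and changed no call among the 32 genes; over the pathway it gave 15 higher and 9 lower in place of 14 and 7. Of 384 recomputed values of single genes, 365 kept direction and call, 11 lost the call, 4 gained one and 4, none of them called, changed sign. The sign changed for Ifit3 without AMLE replicate 2 (0.010), for Ifit3b without DMSO replicate 1 (0.16) or AMLE replicate 2 (0.020), and for Ifi204 without AMLE replicate 2 (0.046); in fits leaving out 1 library these genes ranged from -0.21 to 0.010, from -0.37 to 0.16 and from -0.35 to 0.046. Genes called lower ranged from 1 to 3 in those fits and pathway genes called lower from 4 to 9, with 4 of them without DMSO replicate 1, 2 or 3 or AMLE replicate 1. Without both libraries numbered 3, 6 genes were called lower, the additions being Mx1 (-0.27), Ifi204 (-0.49) and Ifitm3 (-0.42), with edgeR adjusted p-values of 0.0360, 0.0178 and 0.0228; the cause was not tested.

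Start peaks in both DMSO libraries were found for 4 genes at a −log10 q of at least 5. Ifit2 and Herc6 were not among them, with 3.48 for Ifit2 in DMSO replicate 2 and 4.39 for Herc6 in DMSO replicate 1. In both AMLE libraries the genes that reached it were Ifit2, Herc6, Samhd1, Trim30a and Ifi35, so the AMLE count did not fall below the DMSO count. By either gene end, 12 of all 32 genes had a peak in both DMSO libraries. That count is of another kind, since it covers more genes and includes peaks at the far end of a gene. Intervals away from the starts of the listed genes, those by starts of other genes included, were also recounted. In the DMSO consensus alone they numbered 13 with a reach of 50 kb and 3 with 5 kb. Those in the AMLE consensus alone numbered 0 at the stricter threshold, 0 with 5 kb and 6 when a reciprocal overlap of 50% was asked. Counts were low for Ifi44, Ifit3b, Ifi205 in DMSO and the interferon genes, which limits their precision.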

Other observations

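The replicates did not rank alike at these genes and at others that rose. AMLE replicate 1 was the highest AMLE library for 15 of the 22 genes called higher (68.2%), while it was so for 499 of all 3004 genes called higher (16.6%). It was the lowest AMLE library for 0 of the 22, beside 31.5% of all genes called higher. DMSO replicate 1 was likewise the highest DMSO library for 13 of the 22 (59.1%), beside 26.7%. Over all 32 genes AMLE replicate 1 was highest for 18 (56.2%), beside 27.2% of all tested genes. The summed level of the 6 OAS genes shows it: 189, 166 and 139 CPM in DMSO replicates 1 to 3 and 352, 282 and 269 in AMLE replicates 1 to 3. The 32 genes share regulators and are not independent of each other, so these shares are a description of the 6 libraries. What replicate number 1 stands for is not given in the labels, and its part in the results was not tested.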
